A study of Homo sapiens with 12 samples.

Results

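The response of SW480 cells to loss of the enzyme ALDH1B1 was set against their response to an inhibitor of it, gene by gene, as a difference between 2 arms. The knockout arm was coded as clone with EGFP minus clone with ALDH1B1, and the inhibitor arm as inhibitor minus DMSO. The difference is the log2 change in the knockout arm minus the log2 change in the inhibitor arm, so a positive value means a gene lay higher in the knockout arm. Genes were taken from both deposited count tables by gene identifier, which joined 26814 of the 33331 genes listed in either one. A filter on low counts left 19075 genes that were tested, and 7739 joined genes were not. The level of a gene in each line is its mean CPM, counts scaled to the library size, over the 6 libraries of that line.

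SW480 is a human colorectal adenocarcinoma line, and polyadenylated RNA was sequenced from 4 groups of 3 libraries. In the first pair of groups, 1 SW480 clone with ALDH1B1 knocked out was made to express either EGFP, a fluorescent protein that serves as the control, or ALDH1B1 itself. In the second pair, the unedited parental line received DMSO, the solvent, or 2 µM of an ALDH1B1-selective inhibitor for 24 hours. All cells grew in RPMI medium with serum, the clone carries the knockout in both of its groups, and the promoter that drives the constructs is not stated in the labels. The libraries are described as biological replicates, but of 1 clone and 1 parental line, so each p-value measures the spread between these cultures.

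ALDH1B1 is a mitochondrial enzyme that oxidises aldehydes to acids and is abundant in many colorectal tumours. A knockout removes a protein for the life of a clone, including any role that does not need catalysis, and re-expression restores it at whatever level the construct gives. An inhibitor acts on the enzyme that is already present and for as long as it is in the medium.

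Total counts lay between 32617089 and 39018926 per library. The first principal component of the log2 CPM values separated the clone from the parental line and held 96.8% of the variance, and the second held 1.02%. EGFP replicate 3 and DMSO replicate 2 stood apart from their group, with a chi-square per degree of freedom of 10.7 to 15.96 and 6.98 to 10.4 against the other libraries of the group. Inhibitor replicate 1, at 7.98 and 8.16 against the others of its group, was not counted among them. The epithelial keratins KRT8, KRT18 and KRT19 were high in every group, while other epithelial markers differed between the lines. EPCAM lay at 123.8 and 131.3 CPM in the clone groups and 734.9 and 769.4 CPM in the parental groups, and the villin VIL1 at 0.137 and 0.478 against 345.7 and 400.6 CPM. KRT20 and CEACAM5, which mark differentiated colon epithelium, lay between 0.0091 and 0.231 CPM over each group. Endothelial markers summed to between 0.994 and 1.76 CPM per library, and leukocyte markers to between 1.09 and 2.27 CPM. Fibroblast markers summed to 38.7 to 39.6 CPM in the clone with ALDH1B1, 53.3 to 54.6 CPM with EGFP and 7.26 to 9.49 CPM in the parental libraries. COL3A1, DCN, THY1 and FAP from that list were near 0 in all groups, so the sum came from COL1A1, PDGFRB and FBLN1.

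ALDH1B1 itself (chr9:38392664-38398661, hg38) separated the arms by design. It measured 104.1, 97.8 and 100.3 CPM in the clone with ALDH1B1 and 18.5, 18.8 and 18.0 CPM in the clone with EGFP. The parental line held 45.4, 53.02 and 50.2 CPM in DMSO and 49.9, 51.0 and 50.4 CPM with inhibitor. The clone groups were far apart, with the parental line between them, and the parental groups overlapped. The knockout arm gave a log2 change of -2.45 ± 0.06 (SE), the inhibitor arm 0.03 ± 0.06, and their difference was -2.48 ± 0.09 (edgeR quasi-likelihood test, Benjamini-Hochberg adjusted p = 2.95e-15). The counts do not tell RNA of the edited gene from RNA of the construct.

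Of the genes tested, 974 (5.11%) differed between the arms at an adjusted p under 0.05 in edgeR's quasi-likelihood test. The difference was positive for 363 (1.9%) and negative for 611 (3.2%). In the knockout arm 2709 genes (14.2%) were called, 1192 higher (6.25%) and 1517 lower (7.95%). In the inhibitor arm 1021 (5.35%) were called, 590 higher (3.09%) and 431 lower (2.26%). Called genes of opposite direction were few. Only 21 genes rose in the knockout arm and fell in the inhibitor arm, and 34 did the reverse, and all 55 had a called difference. Another 115 genes rose in both arms and 163 fell in both, of which 13 of the 278 had a called difference in size. These counts depended on single libraries. Positive and negative differences numbered 170 and 222 without replicate 1 of the clone with ALDH1B1, 176 and 251 without its replicate 2, 207 and 319 without EGFP replicate 1, 181 and 290 without DMSO replicate 3, and 213 and 388 without inhibitor replicate 3. Negative differences alone fell past that margin, to 332, without DMSO replicate 2 and to 352 without the inhibitor library that carries no number. Opposite calls (21 and 34) numbered 5 and 6 without inhibitor replicate 3, 8 and 7 without DMSO replicate 3, 13 and 7 without DMSO replicate 2, 12 and 10 without ALDH1B1 replicate 1, and 11 and 12 without ALDH1B1 replicate 2. The 34 alone became 14 without EGFP replicate 1, 22 without DMSO replicate 1 and 16 without the inhibitor library with no number. Inhibitor calls fell to 311, 418, 431 and 652 without inhibitor replicate 3, DMSO replicate 3, DMSO replicate 2 and the library with no number. Knockout calls fell to 1464, 1370 and 1708 without ALDH1B1 replicates 1 and 2 and EGFP replicate 1. Genes higher in both arms numbered 44, 46, 47, 59, 70, 71 and 76 without inhibitor replicate 3, DMSO replicate 2, DMSO replicate 3, ALDH1B1 replicate 2, the library with no number, EGFP replicate 1 and ALDH1B1 replicate 3. Genes lower in both numbered 74, 90, 97 and 104 without inhibitor replicate 3, DMSO replicate 3, ALDH1B1 replicate 2 and ALDH1B1 replicate 1.

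Most called differences involved a gene that moved in 1 arm. Among the 974, 778 were called in 1 arm, and 128 in neither arm. Genes that rose in the knockout arm without an inhibitor call numbered 1056, and 222 of them had a called difference. For genes that fell in the knockout arm without an inhibitor call, the numbers were 1320 and 353. Genes called in the inhibitor arm and not in the knockout arm gave fewer in number, 136 of 441 that rose (30.8%) and 67 of 247 that fell (27.1%). As shares these were not lower than the 21.0% and 26.7% of genes that rose or fell in the knockout arm alone. A gene called in 1 arm is thus often not shown to differ between the arms.

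The arms have no library in common, so their effects can be set against each other across genes, which are not independent replicates. Over all 19075 genes Pearson's r was 0.07 and Spearman's rho 0.15. Over the 10294 genes with at least 5 CPM in both lines they were 0.30 and 0.25. Genes that rose in the knockout arm had a median inhibitor change of 0.09, with 69.4% positive, against 52.5% of all tested genes. Of the genes that fell with inhibitor, 37.8% also fell in the knockout arm and 4.87% rose there. Of those that rose with inhibitor, 19.5% also rose in the knockout arm and 5.76% fell. Over all tested genes, 6.25% rose and 7.95% fell in the knockout arm. The plot of the arms shows a cloud stretched along the line of equal change, with called differences on either side of it.

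**Figure D1:**
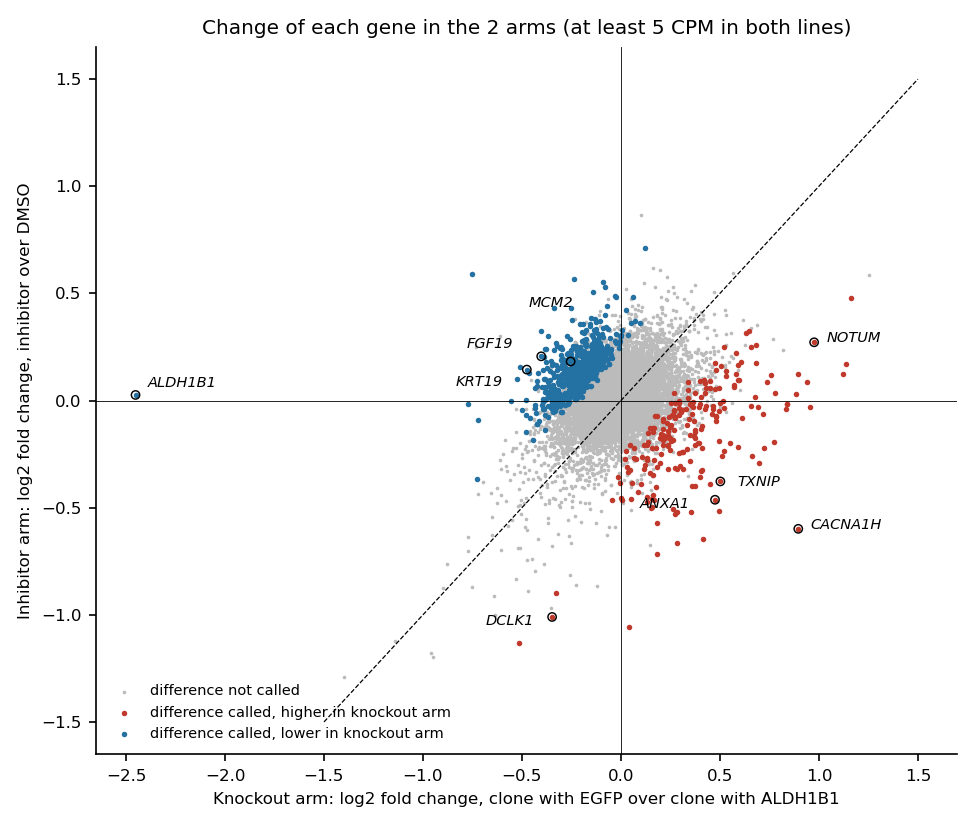
Log2 fold change in the knockout arm (x axis) against the inhibitor arm (y axis) for the 10294 genes with at least 5 CPM in both lines. Red and blue points have a called positive or negative difference, grey points do not, the dashed line marks equal change, and circled genes are named in the text. TXNIP, ANXA1 and CACNA1H lie at lower right and FGF19 and MCM2 at upper left.

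TXNIP and ANXA1 led the genes that rose in the knockout arm and fell with inhibitor. TXNIP (chr1:145992435-145996600) encodes an arrestin-domain protein that binds thioredoxin and restrains glucose uptake. It measured 83.4, 92.3 and 95.6 CPM in the clone with ALDH1B1 and 126.1, 128.7 and 129.6 CPM with EGFP. In the parental line it measured 168.6, 178.8 and 171.2 CPM in DMSO and 134.4, 134.9 and 129.9 CPM with inhibitor. Neither pair of groups overlapped. Mean levels were 90.4 and 128.1 CPM in the clone and 172.9 and 133.1 CPM in the parental line, in that order. The log2 changes were 0.50 ± 0.05 and -0.38 ± 0.05, and the difference was 0.88 ± 0.07 (edgeR quasi-likelihood test, Benjamini-Hochberg adjusted p = 2.86e-07).

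ARRDC4 (chr15:97960698-97973838), a close relative of TXNIP in the arrestin-domain family, was chosen after its values were seen. It measured 7.36, 9.03 and 8.11 CPM in the clone with ALDH1B1 and 11.9, 10.7 and 11.02 CPM with EGFP. In DMSO it measured 19.6, 21.2 and 20.03 CPM and with inhibitor 14.7, 16.2 and 15.5 CPM. As for TXNIP, no groups overlapped, EGFP lay above ALDH1B1 and inhibitor lay below DMSO. The difference was 0.84 ± 0.13 (edgeR quasi-likelihood test, Benjamini-Hochberg adjusted p = 4.27e-04). TXNIP and ARRDC4 are known targets of MondoA and ChREBP, transcription factors that pair with MLX and act when glucose metabolites are plentiful. Of the 11 tested genes on the list of glucose-responsive targets, 5 rose and 2 fell in the knockout arm (median 0.13). With inhibitor 2 fell (median -0.03), and TXNIP and ARRDC4 were the 2 with a called difference. The shares of all genes tested were 6.25% higher and 7.95% lower in the knockout arm, 2.26% lower with inhibitor and 5.11% for the difference.

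MondoA and ChREBP bind pairs of short E-box-like sites, so the promoter windows of both genes are shown, from 250 bases before to 50 after the start of transcription (RefSeq, GRCh38.p14). Capitals mark CACG on either strand, read as CACG or CGTG, where overlapping matches such as CACGTG count once for each strand.
TXNIP, chr1:145996530-145996829, minus strand: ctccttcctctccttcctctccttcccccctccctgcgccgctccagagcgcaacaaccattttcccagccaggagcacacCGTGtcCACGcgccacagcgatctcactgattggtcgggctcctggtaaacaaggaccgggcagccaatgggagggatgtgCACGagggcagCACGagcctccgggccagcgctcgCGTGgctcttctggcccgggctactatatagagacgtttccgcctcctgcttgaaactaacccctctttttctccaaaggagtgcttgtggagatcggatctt
ARRDC4, chr15:97960453-97960752, plus strand: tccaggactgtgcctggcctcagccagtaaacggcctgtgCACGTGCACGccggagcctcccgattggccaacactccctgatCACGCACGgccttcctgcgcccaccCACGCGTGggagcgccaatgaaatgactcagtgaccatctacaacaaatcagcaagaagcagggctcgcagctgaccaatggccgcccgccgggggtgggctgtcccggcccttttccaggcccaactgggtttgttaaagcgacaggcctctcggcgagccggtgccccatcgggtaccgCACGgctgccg
The TXNIP window held 5 matches, a number reached by 5.38% of the 35116 windows in the table. Among them, 2 copies of CACGAG begin 88 and 77 bases before the start and are 5 bases apart. On either strand, 0.0057% of windows held this arrangement. It is the arrangement of the TXNIP window itself, which is among those windows, so the share tests nothing. The ARRDC4 window held 8 matches, reached by 0.649% of windows, and no such pair of CACGAG. A second TXNIP window in the table, at chr1:145995695-145995994, held 1 match, as did 67.0% of windows or more. These are letters in a sequence and not measured binding.

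ANXA1 (chr9:73151757-73170393) encodes annexin A1, a calcium-dependent phospholipid-binding protein. It measured 31.5, 34.5 and 35.4 CPM in the clone with ALDH1B1, 45.3, 46.7 and 49.0 CPM with EGFP, 98.7, 120.4 and 108.4 CPM in DMSO and 81.8, 81.5 and 74.1 CPM with inhibitor. Both pairs of groups were apart, and every parental library exceeded every clone library. The log2 changes were 0.48 ± 0.07 and -0.46 ± 0.07 and the difference was 0.94 ± 0.10 (edgeR quasi-likelihood test, Benjamini-Hochberg adjusted p = 8.12e-06). Among the 11 annexins tested, ANXA1 was the one with opposite calls. ANXA6, named after its values were seen, had a difference of -0.29. In the knockout arm 2 annexins rose, and with inhibitor 1 rose and 3 fell. Among all genes tested, 6.25% rose in the knockout arm, and 3.09% rose and 2.26% fell with inhibitor. The difference was called higher for 1 annexin and lower for 1, against 1.9% and 3.2% of all genes tested.

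CACNA1H (chr16:1153121-1221772) encodes the pore of a T-type voltage-gated calcium channel and was the lowest of these genes. It measured 4.70, 4.76 and 4.49 CPM in the clone with ALDH1B1, 8.52, 9.82 and 7.63 CPM with EGFP, 8.16, 10.2 and 9.92 CPM in DMSO and 7.27, 5.91 and 5.45 CPM with inhibitor. The clone with ALDH1B1 and the inhibited line were the low groups of their pairs, without overlap. Its log2 changes were 0.90 ± 0.13 and -0.60 ± 0.13, a difference of 1.49 ± 0.18 (edgeR quasi-likelihood test, Benjamini-Hochberg adjusted p = 5.98e-05). Of 21 tested genes for calcium entry, 4 rose in the knockout arm and 2 rose and 1 fell with inhibitor. The shares of all genes tested were 6.25%, 3.09% and 2.26%, in that order. CACNA2D1, an auxiliary channel subunit chosen after its values were seen, was the other called difference at 1.11, with 1.24 in the knockout arm and 0.13 in the inhibitor arm. These are 2 higher differences of the 21 genes, against 1.9% of all genes tested.

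MUCL1, MYO15B and PRSS23 completed the leading genes of this pattern. MUCL1, a small mucin-like protein, averaged 18.6 ± 1.28 CPM (SD, n = 3) with ALDH1B1 and 30.1 ± 3.31 with EGFP, and 20.8 ± 0.66 in DMSO and 16.9 ± 1.26 with inhibitor. MYO15B, a myosin gene, averaged 9.71 ± 0.98 and 15.3 ± 1.60 CPM in the clone and 201.4 ± 8.45 and 168.2 ± 20.02 CPM in the parental line, in the same order. PRSS23, a serine protease, averaged 135.8 ± 1.78 and 191.8 ± 1.92 CPM in the clone and 21.8 ± 4.96 and 15.2 ± 2.58 CPM in the parental line. MYO15B is thus mainly a parental gene and PRSS23 mainly a clone gene, yet both moved up in the one arm and down in the other. Their differences were 0.99, 0.92 and 1.01. The opposite calls themselves were kept in 11 of 20 alternatives for MUCL1, 13 for MYO15B and 16 for PRSS23. The inhibitor and DMSO libraries of PRSS23 overlapped (17.9, 14.8 and 12.8 against 16.5, 26.4 and 22.4 CPM).

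FGF19 (chr11:69698232-69704642) led the reverse pattern, lower in the knockout arm and higher with inhibitor. It encodes a secreted fibroblast growth factor known in the intestine as a hormone that restrains bile acid synthesis in the liver. It measured 188.4, 187.8 and 187.2 CPM in the clone with ALDH1B1 and 135.4, 143.7 and 147.1 CPM with EGFP. In DMSO it measured 438.8, 414.7 and 438.0 CPM and with inhibitor 504.5, 502.9 and 482.7 CPM. All 4 groups were apart, the lowest being the clone with EGFP and the highest the inhibited line. The log2 changes were -0.40 ± 0.05 and 0.21 ± 0.05, a difference of -0.61 ± 0.07 (edgeR quasi-likelihood test, Benjamini-Hochberg adjusted p = 1.56e-05). FGF3, another ligand of the family that lies near FGF19 on chromosome 11, fell in the knockout arm alone, from 72.2 ± 5.52 to 50.7 ± 6.11 CPM (SD, n = 3). Its parental means were 170.5 ± 1.99 CPM in DMSO and 190.3 ± 15.98 with inhibitor, and its difference was -0.67 ± 0.10. The list of FGF ligands and receptors includes FGF19 and leaves out FGF3. Of its 14 tested genes, 4 rose and 1 fell in the knockout arm and 1 rose with inhibitor. Within the list a difference was called for 1 gene in each direction, and FGF3 comes in addition to these. All genes tested gave 6.25% higher and 7.95% lower in the knockout arm, and 3.09% higher with inhibitor. Their differences were 1.9% higher and 3.2% lower.

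KRT19 (chr17:41523617-41528308), a keratin of simple epithelia, moved like FGF19 in the clone and less in the parental line. It measured 897.8, 884.1 and 839.5 CPM with ALDH1B1, 599.9, 654.5 and 631.3 CPM with EGFP, 670.5, 695.2 and 685.8 CPM in DMSO and 789.1, 737.0 and 741.4 CPM with inhibitor. The inhibitor libraries all exceeded the DMSO libraries. That log2 change of 0.14 ± 0.05 missed the threshold (edgeR quasi-likelihood test, Benjamini-Hochberg adjusted p = 0.079), so KRT19 is not an opposite call. The knockout arm gave -0.48 ± 0.05, and the difference of -0.62 ± 0.07 was called (edgeR quasi-likelihood test, Benjamini-Hochberg adjusted p = 1.56e-05). KRT8 followed, with means of 4402 ± 140.1 and 3725 ± 42.9 CPM in the clone with ALDH1B1 and EGFP, 3594 ± 120.4 CPM in DMSO and 3879 ± 74.3 CPM with inhibitor. Its difference was -0.35 ± 0.06. Of the 17 keratins tested, 8 fell and 1 rose in the knockout arm and 5 fell with inhibitor. The differences called were 5 lower and 1 higher. Of all genes tested, 7.95% fell and 6.25% rose in the knockout arm and 2.26% fell with inhibitor, with 3.2% lower and 1.9% higher differences. The list median was -0.18 in the knockout arm and -0.23 in the inhibitor arm, so KRT19 and KRT8 did not move with the median of their family in the inhibitor arm.

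**Figure D2:**
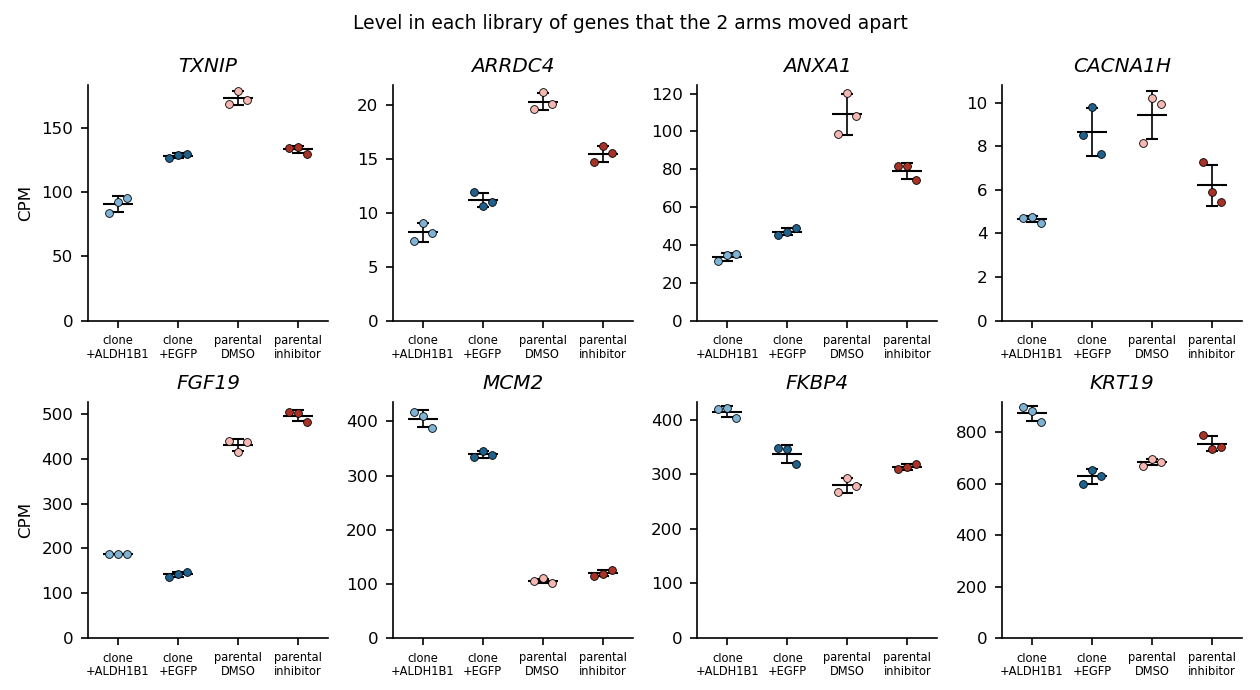
CPM in each library (points) with the mean and SD of each group (bars) for 8 genes, in the clone with ALDH1B1 or EGFP and the parental line with DMSO or inhibitor. TXNIP, ARRDC4, ANXA1 and CACNA1H are higher with EGFP and lower with inhibitor, while FGF19, MCM2, FKBP4 and KRT19 are lower with EGFP and higher with inhibitor, for KRT19 without a call in the inhibitor arm.

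The other leading genes that fell in the knockout arm and rose with inhibitor encode a nucleolar protein, a cytoskeletal crosslinker, chaperones and a mitochondrial scaffold. ACTN1, which crosslinks actin filaments, measured 1608, 1585 and 1474 CPM with ALDH1B1, 1338, 1354 and 1424 CPM with EGFP, 480.9, 455.9 and 486.1 CPM in DMSO and 573.5, 572.1 and 587.9 CPM with inhibitor. No groups overlapped, and the difference was -0.47 ± 0.07. FKBP4, a co-chaperone of HSP90, averaged 415.1 ± 10.3 and 337.8 ± 16.5 CPM (SD, n = 3) in the clone with ALDH1B1 and EGFP, and 279.9 ± 13.2 and 314.4 ± 5.42 CPM in DMSO and inhibitor, a difference of -0.47 ± 0.07. TRAP1, the HSP90 protein of mitochondria, had a difference of -0.44 ± 0.06. PHB, prohibitin of the inner mitochondrial membrane, had -0.50 ± 0.08, and the nucleolar protein CCDC86 had -0.62 ± 0.09. In these 3 genes a large part of the exon sequence overlaps another annotated gene, 37.7% for TRAP1, 49.3% for PHB and 30.7% for CCDC86, so their counts are less certain, as are those of FKBP4 with 13.9%. The inhibitor rises of CCDC86 and FKBP4 were close to the threshold. With each arm fitted on its own 6 libraries, neither rise was called (edgeR quasi-likelihood test, Benjamini-Hochberg adjusted p = 0.0588 and 0.0687). FKBP4 was an opposite call in 3 of 20 alternatives and CCDC86 in 14.

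Among the 278 genes called in the same direction in both arms, 13 had a called difference in size. NOTUM, a secreted inhibitor of Wnt signalling that is itself a Wnt target, measured 69.9, 61.5 and 64.8 CPM with ALDH1B1, 135.5, 137.0 and 113.3 CPM with EGFP, 540.6, 524.8 and 549.9 CPM in DMSO and 693.3, 634.5 and 622.6 CPM with inhibitor. It rose in both arms, by 0.98 ± 0.07 and 0.27 ± 0.06 on the log2 scale, and more in the knockout arm by 0.70 ± 0.09 (edgeR quasi-likelihood test, Benjamini-Hochberg adjusted p = 9.52e-05). QPRT, an enzyme of NAD synthesis from tryptophan, rose by 1.16 and 0.48, with 24.4% of its exons overlapping another gene. MXD4, which opposes MYC at E-boxes, rose by 0.66 and 0.25.

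DCLK1, a kinase known as a tuft cell marker, fell more with inhibitor. It measured 440.2, 443.6 and 433.2 CPM with ALDH1B1 and 333.0, 336.2 and 365.7 CPM with EGFP, but 13.7, 21.9 and 16.8 CPM in DMSO and 9.37, 9.19 and 7.27 CPM with inhibitor. Both pairs of groups were apart, and the level in the clone was far above that in the parental line. The log2 changes were -0.35 ± 0.09 and -1.01 ± 0.12, a difference of 0.66 ± 0.14. The DMSO value of DCLK1 was highest in replicate 2, which stood apart. With both libraries that stand apart left out, the difference was 0.46 and kept its call. MT-ND3 and BLOC1S1 also fell more with inhibitor, with differences of 0.57 ± 0.15 and 0.62 ± 0.18, but each lost its call in many of the 19 alternatives, 9 for MT-ND3 and 12 for BLOC1S1. Without EGFP replicate 3 their differences were 0.47 and 0.40, and BLOC1S1 also lost its call without any other single library except EGFP replicates 1 and 2. MT-ND3 lost it without EGFP replicates 1 or 3, DMSO replicate 3, inhibitor replicates 1 or 3, or any ALDH1B1 replicate. BLOC1S1 overlaps another gene over 64.1% of its exons.

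Genes called in the knockout arm alone, with a called difference, were led upwards by MCTP1, FOLR1, STEAP2 and SEMA3A. MCTP1, a calcium-binding membrane protein, measured 3.07, 3.70 and 3.01 CPM with ALDH1B1 and 7.44, 7.19 and 6.73 CPM with EGFP, against 146.9 ± 4.11 and 159.9 ± 9.93 CPM (SD, n = 3) in DMSO and inhibitor. SEMA3A, a secreted guidance protein, averaged 10.0 ± 0.86 and 22.1 ± 1.01 CPM in the clone and 203.9 ± 17.5 and 229.2 ± 29.1 CPM in the parental line. STEAP2, a metalloreductase, averaged 5.60 ± 0.75 and 9.63 ± 2.00 CPM in the clone and 149.2 ± 3.89 and 130.7 ± 0.85 CPM in the parental line. FOLR1, the folate receptor alpha, averaged 5.60 ± 1.12 and 10.8 ± 0.49 CPM in the clone and 21.4 ± 1.42 and 20.9 ± 0.26 CPM in the parental line. The 4 genes had differences from 0.97 to 1.00, and all of them were higher in the parental line than in either clone group. With each arm fitted on its own 6 libraries, STEAP2 was called lower with inhibitor (edgeR quasi-likelihood test, Benjamini-Hochberg adjusted p = 0.0205). Its place among genes called in the knockout arm alone thus depended on the fit.

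Downwards, the genes called in the knockout arm alone were ALDH1B1, FGF3, TRPM2 and MRPL12. TRPM2, a cation channel opened by ADP-ribose, averaged 33.2 ± 1.92 and 25.8 ± 2.63 CPM (SD, n = 3) in the clone with ALDH1B1 and EGFP and 5.10 ± 0.06 and 6.28 ± 0.66 CPM in the parental line, a difference of -0.67 ± 0.14. MRPL12, a mitochondrial ribosomal protein, measured 45.4, 43.0 and 41.3 CPM with ALDH1B1 and 28.8, 31.6 and 15.4 CPM with EGFP, where replicate 3 was lowest. MRPL12 shares 68.2% of its exons with another gene, and its difference of -0.76 lost its call in 7 of the 19 alternatives. Among them were the omission of ALDH1B1 replicates 1 or 2, DMSO replicates 2 or 3, or the inhibitor library with no number. The differences were then from -0.79 to -0.68. With both libraries that stand apart left out, EGFP replicate 3 among them, the difference was -0.43 and kept its call.

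With inhibitor alone, SLC27A3, CDT1, PACSIN3 and KLF15 rose. CDT1, which loads the replicative helicase onto DNA, measured 108.9, 90.3 and 102.6 CPM in DMSO and 135.6, 144.3 and 149.4 CPM with inhibitor. In the clone it measured 109.7, 105.0 and 98.8 CPM with ALDH1B1 and 86.5, 96.1 and 102.1 CPM with EGFP, where the groups overlapped. Its log2 change was 0.51 ± 0.07 with inhibitor, and the difference was -0.65 ± 0.10 (edgeR quasi-likelihood test, Benjamini-Hochberg adjusted p = 3.83e-04). SLC27A3, an acyl-CoA synthetase, rose from 4.22 ± 0.44 to 6.28 ± 0.61 CPM (SD, n = 3), PACSIN3, a membrane-shaping protein, from 20.1 ± 1.27 to 29.1 ± 2.23 CPM, and KLF15, a transcription factor of metabolic genes, from 6.90 ± 1.00 to 11.3 ± 0.41 CPM. The difference for KLF15 (-0.59 ± 0.15) lost its call in 7 of the 19 alternatives. These include the omission of ALDH1B1 replicate 1, EGFP replicate 3, DMSO replicates 2 or 3, or inhibitor replicate 3, with differences from -0.60 to -0.47.

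CAV1, CST7, SLIT1 and ADAMTSL5 were called lower with inhibitor and not called in the knockout arm. For CAV1 and CST7 that status depended on the fit, since with each arm fitted on its own 6 libraries both were called higher in the knockout arm (edgeR quasi-likelihood test, Benjamini-Hochberg adjusted p = 0.0143 and 0.0133). CAV1, the coat protein of caveolae, measured 26.4, 41.1 and 30.0 CPM in DMSO and 21.5, 20.8 and 16.7 CPM with inhibitor, and 99.5 ± 2.39 and 112.9 ± 5.49 CPM (SD, n = 3) in the clone with ALDH1B1 and EGFP. CST7, a cystatin that inhibits cathepsins, fell from 144.2 ± 23.2 to 100.6 ± 17.9 CPM. SLIT1, a secreted guidance protein, varied most, with 85.0, 166.4 and 123.4 CPM in DMSO and 81.7, 60.1 and 37.6 CPM with inhibitor. The DMSO value of SLIT1 was highest in replicate 2, which stood apart. Their differences were 0.90, 0.80 and 1.10, and that of ADAMTSL5, a secreted matrix protein, was 0.95. SLIT1 lost its call for the difference in DESeq2 and with the replicate block, and ADAMTSL5 lost it with the block.

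The lists with the highest shares of called differences were G1/S transition and replication (40.5%), mitochondrially encoded genes (38.5%) and glycolysis (37.5%), against 5.11% of all genes tested. Among 42 genes of G1/S transition and replication of DNA, 20 fell in the knockout arm (median -0.19), whereas 5 rose and 1 fell with inhibitor (median 0.06). The difference was called lower for 17 of them, and no higher difference was seen at an unadjusted p under 0.05 or in DESeq2. The 17 are 40.5% of the list against 3.2% of all genes tested, with a median difference of -0.25 against -0.01 over all genes. Over all genes tested, 7.95% fell in the knockout arm, and 3.09% rose and 2.26% fell with inhibitor. MCM2, a subunit of the replicative helicase, measured 416.5, 410.9 and 387.3 CPM with ALDH1B1, 333.7, 346.1 and 338.8 CPM with EGFP, 104.8, 110.1 and 101.8 CPM in DMSO and 114.7, 118.3 and 126.3 CPM with inhibitor. No groups overlapped, and it is an opposite call with a difference of -0.44 ± 0.07, though 31.97% of its exons overlap another gene. Its inhibitor rise was not called with each arm fitted on its own 6 libraries (edgeR quasi-likelihood test, Benjamini-Hochberg adjusted p = 0.079), and it was an opposite call in 10 of 20 alternatives. Per library, the mean log2 level of the list relative to its line was 0.11, 0.10 and 0.09 with ALDH1B1 and -0.13, -0.09 and -0.08 with EGFP. In the parental line the groups overlapped, with 0.01, -0.07 and -0.03 in DMSO and -0.06, 0.05 and 0.10 with inhibitor. Of 38 genes of G2/M and mitosis, 14 fell in the knockout arm and 3 fell with inhibitor. No difference was called among them in edgeR's quasi-likelihood test or in DESeq2, and 4 were lower at an unadjusted p under 0.05 in edgeR.

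Of 46 ribosome assembly factors, 29 fell in the knockout arm (median -0.22) and 2 fell with inhibitor (median -0.05), and 12 had a lower difference. Over all genes tested, 7.95% fell in the knockout arm, 2.26% fell with inhibitor and 3.2% had a lower difference. EBNA1BP2, a nucleolar factor of large-subunit processing, averaged 151.6 ± 6.30 and 110.0 ± 4.62 CPM (SD, n = 3) in the clone with ALDH1B1 and EGFP and 63.4 ± 2.59 and 69.3 ± 2.93 CPM in DMSO and inhibitor, a difference of -0.59 ± 0.08. NOC2L, an assembly factor that shares 13.5% of its exons, had a difference of -0.35 ± 0.07. The list stood at 0.12, 0.12 and 0.11 with ALDH1B1 and -0.12, -0.11 and -0.11 with EGFP relative to its line, and the parental groups overlapped. Of 20 heat shock genes, 11 fell in the knockout arm (median -0.18), 3 rose and 1 fell with inhibitor (median 0.04), and 6 had a lower difference. HSPH1, a nucleotide exchange factor for HSP70, averaged 496.0 ± 3.28 and 393.3 ± 14.2 CPM in the clone and 101.7 ± 5.39 and 105.0 ± 3.94 CPM in the parental line.

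Part of the respiratory chain and ribosomal protein genes fell in each arm. Of 76 nuclear-encoded respiratory genes, 45 fell in the knockout arm and 22 fell and 1 rose with inhibitor, with medians of -0.21 and -0.14, and 5 had a lower difference. Of 79 cytosolic ribosomal proteins, 47 fell in the knockout arm and 19 with inhibitor, with medians of -0.18 and -0.09, and 2 had a lower difference. Over all genes tested, 7.95% fell in the knockout arm, 2.26% fell with inhibitor and 3.2% had a lower difference. Positive inhibitor changes, called or not, were held by 22 of the 76 and 16 of the 79. These lists hold short transcripts, with median lengths of 1080 and 1004 nt. Among all genes at 5 CPM or more in both lines, the 237 transcripts under 800 nt had medians of -0.17 in the knockout arm and -0.10 with inhibitor. The 1023 transcripts of 800 to 1500 nt, where the median lengths of both lists lie, had -0.11 and -0.006. The 1698 of 6000 nt or more had -0.02 and -0.01. With an offset for the length trend, the respiratory list had medians of -0.19 in the knockout arm and -0.12 with inhibitor. The ribosomal proteins then had -0.17 and -0.08. The cause of the fall of these lists was not tested. The difference varied less, with medians of -0.08 for the shortest transcripts, -0.10 for those of 800 to 1500 nt and -0.004 for the longest.

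Of 13 mitochondrially encoded genes, 5 rose and 1 fell in the knockout arm (median 0.18). With inhibitor 2 fell (median -0.16), and 5 had a higher difference. The shares of all genes tested were 6.25% and 7.95% in the knockout arm, 2.26% lower with inhibitor and 1.9% with a higher difference. In the inhibitor arm 0 of the 13 had a positive change, and 7 were not called in the knockout arm. MT-CYB, the cytochrome b of complex III, measured 2567, 2120 and 2485 CPM with ALDH1B1, 2898, 2673 and 3692 CPM with EGFP, 2561, 2237 and 2517 CPM in DMSO and 2189, 2165 and 2158 CPM with inhibitor. EGFP replicate 3, which stood apart, was the highest library. The list as a whole overlapped between clone groups, at -0.02, -0.13 and -0.05 with ALDH1B1 and 0.07, -0.15 and 0.29 with EGFP relative to its line. Mitochondrially encoded reads made up 3.33% to 3.59% of counts with ALDH1B1, 3.59% to 5.02% with EGFP, 4.53% to 5.12% in DMSO and 4.35% to 4.61% with inhibitor. MT-ND3 was the 1 member called lower in the knockout arm, at -0.33, and fell with inhibitor from 905.0 ± 22.9 to 486.2 ± 95.6 CPM (SD, n = 3).

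Of 24 glycolysis and lactate genes, 8 fell and 2 rose in the knockout arm (median -0.11), 4 rose and 2 fell with inhibitor (median 0.04), and the difference was lower for 7 and higher for 2. The background over all genes tested was 6.25% higher and 7.95% lower in the knockout arm, 3.09% and 2.26% with inhibitor, and 1.9% and 3.2% for the difference. ENO1, the enolase of glycolysis, averaged 2368 ± 81.6 and 1946 ± 13.8 CPM (SD, n = 3) in the clone with ALDH1B1 and EGFP and 3272 ± 71.8 and 3230 ± 84.9 CPM in the parental line. Its difference of -0.27 ± 0.06 lost its call without ALDH1B1 replicate 1, at -0.24. The glucose transporter SLC2A3 had a difference of the other sign, 0.38 ± 0.07, since it fell with inhibitor and was not called in the knockout arm. It averaged 1499 ± 36.8 and 1496 ± 68.3 CPM in the clone but 759.8 ± 32.8 CPM in DMSO and 582.7 ± 19.3 CPM with inhibitor. Of 25 Wnt targets, 9 rose and 1 fell in the knockout arm and 5 rose and 1 fell with inhibitor, with similar medians of 0.09 and 0.07. NOTUM, the transcription factor PROX1 and the Wnt inhibitors NKD2 and DKK4 had higher differences and MYB a lower one, of which NKD2, DKK4 and MYB are named after their values were seen. PROX1 averaged 5.10 ± 0.59 and 9.10 ± 0.64 CPM in the clone and 270.0 ± 4.52 and 266.6 ± 16.2 CPM in the parental line.

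Counts in the signalling and identity lists are of few genes each. Called differences made up 5.88% (aldehyde dehydrogenases) to 18.75% (absorptive enterocyte genes) of the lists in this paragraph. Of all genes tested, 5.11% had a called difference, 1.9% higher and 3.2% lower. In the knockout arm 6.25% of all genes rose and 7.95% fell, and with inhibitor 3.09% rose and 2.26% fell. Of 16 absorptive enterocyte genes, 7 rose in the knockout arm and 1 with inhibitor, and 3 had a higher difference. Of 32 interferon-induced genes, 10 rose in the knockout arm (median 0.26), 3 rose and 1 fell with inhibitor (median -0.02), and the difference was higher for 4 and lower for 1. Of 25 mesenchymal and matrix genes, 3 rose and 3 fell in the knockout arm and 1 rose and 3 fell with inhibitor, with 3 higher differences and 1 lower. For 13 members and ligands of the EGF receptor family, 2 rose and 1 fell in the knockout arm and 1 rose and 3 fell with inhibitor. In that list MET, the receptor of hepatocyte growth factor, had a difference of 0.44, and ERBB3, a kinase-poor partner of the other receptors, had -0.56, both named after their values were seen. Of 13 aryl hydrocarbon receptor genes, 2 differences were lower, and CYP1A1, its classical target and also named after its values were seen, rose by 1.48 with inhibitor against 0.35 in the knockout arm. Of 17 aldehyde dehydrogenases, 6 rose and 1 fell in the knockout arm and 2 rose with inhibitor, and ALDH1B1 was the 1 gene with a called difference.

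Against the same background of 5.11%, stress lists ranged from no called difference to 13.04% of NRF2 targets. Hypoxia genes outside glycolysis and genes of the endoplasmic reticulum unfolded protein response had no called difference among 17 and 18 tested in edgeR's quasi-likelihood test. At an unadjusted p under 0.05, 1 hypoxia gene was higher, and 4 unfolded protein response genes were higher and 3 lower. DESeq2 called 1 hypoxia gene higher and 1 unfolded protein response gene lower. For NRF2 targets 3 of 23 were lower, and for p53 targets 1 of 23 was higher and 1 lower. ATF4 targets gave 1 higher and 2 lower of 24, cholesterol synthesis 1 higher of 25, and lysosomal genes 3 higher and 2 lower of 29 (17.2%). YAP and TEAD targets gave 2 higher of 18, TGF beta and BMP response genes 2 higher of 19, ERK feedback and immediate early genes 1 lower of 26, and epithelial junctions 2 higher and 2 lower of 25. Stem and tuft cell genes gave 1 higher of 12 and goblet and secretory genes 0 of 11, with 2 higher at an unadjusted p under 0.05 in edgeR and 0 called in DESeq2. In the plot of list medians the G1/S and heat shock lists have the lowest median differences, at -0.25 and -0.23. Goblet and secretory genes (0.65) and stem and tuft cell genes (0.56) have the highest, with 11 and 12 genes tested. The goblet list had medians of -0.12 in the knockout arm and -0.23 with inhibitor, so the median of its differences is not the gap between its medians. Relative to its line it stood at 0.07, -0.08 and 0.05 with ALDH1B1 and 0.05, 0.03 and -0.10 with EGFP, where the groups overlapped.

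**Figure D3:**
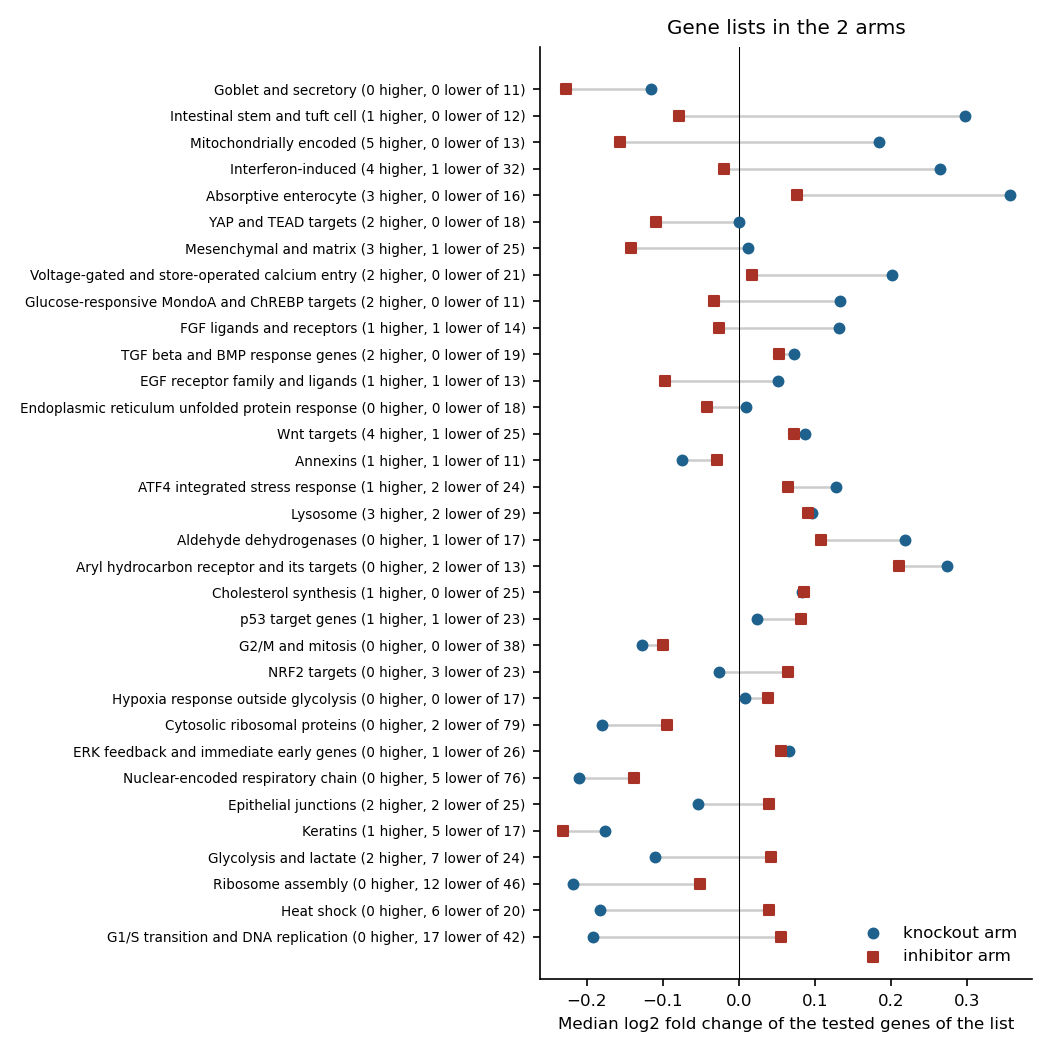
Median log2 fold change of the tested genes of each list with at least 8 tested members in the knockout arm (circles) and the inhibitor arm (squares), ordered by the median difference, with counts of called differences beside each name. The G1/S and heat shock lists have knockout medians of -0.19 and -0.18 and inhibitor medians of 0.06 and 0.04.

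The level of a gene in clone and parental line was related to how the arms differed. By a threshold of 2-fold and an adjusted p under 0.05 in edgeR's quasi-likelihood test, 3636 genes (19.1%) were higher in the clone and 3499 (18.3%) in the parental line. Of the 363 genes with a positive difference, 40.8% were at least 2-fold higher in the parental line, against 18.4% of all tested genes. Of the 611 with a negative difference, 5.57% were, and 73.8% lay within 2-fold. The 2 sets also differed in level, with medians of 12.5 and 95.3 CPM in the clone and 17.9 and 81.6 CPM in the parental line. Among opposite calls, 10 of the 21 that rose in the knockout arm were 2-fold higher in the parental line, while 22 of the 34 that fell lay within 2-fold.

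Among the 8982 genes with at least 20 CPM in 1 line or the other, the median knockout change rose with the excess of the parental line. It was -0.05 for 6625 genes within 2-fold, 0.02 for 684 genes that were 2- to 4-fold higher in the parental line, 0.08 for 248 at 4- to 16-fold and 0.39 for 121 above 16-fold. For genes higher in the clone the medians were -0.04, 0.02 and 0.06 over the same steps. The share called higher in the knockout arm was large at both ends, 29 of 121 genes above 16-fold in the parental line and 44 of 158 (27.8%) above 16-fold in the clone, against 4.54% of those within 2-fold. The inhibitor medians lay between -0.001 and 0.04 in all 7 classes. A positive difference was called for 14.9% of genes above 16-fold in the parental line and 1.16% of those within 2-fold, and a negative one for 0.826% and 6.42%.

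**Figure D4:**
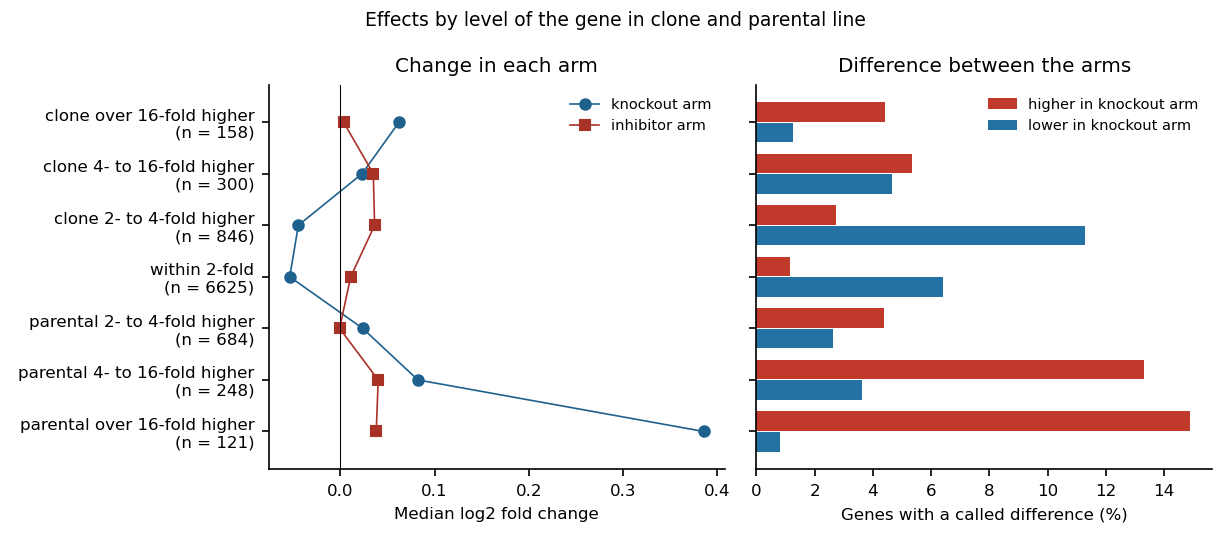
Genes with at least 20 CPM in 1 line or the other, grouped by fold between the lines (y axis). At left, the median log2 fold change in each arm, and at right, the percentage with a called difference in each direction. The knockout median is 0.39 where the parental line is over 16-fold higher, while the inhibitor medians stay between -0.001 and 0.04.

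Genes that the clone hardly expresses lie within the class above 16-fold, so their values describe that class further and are no separate evidence. Of 70 genes with at least 20 CPM in the parental line and under 1 CPM in the clone, 59 had a positive knockout change (median 0.46). By call 7 rose, against 6.25% of all genes tested, and none fell, against 7.95%. The summed level of the 70 as a percentage of that in the parental line was 0.443, 0.499 and 0.477 with ALDH1B1. With EGFP it was 0.639, 0.632 and 0.603. The groups did not overlap. The mirror set of 66 genes, at 20 CPM or more in the clone and under 1 CPM in the parental line, stood at 1.01% to 1.06% of the clone level in DMSO and 1.02% to 1.07% with inhibitor, with overlap. In bulk RNA, fewer cells of a type and less RNA per cell cannot be told apart, and the source of these reads was not tested. MCTP1, SEMA3A, STEAP2, PROX1, HNF4A and VIL1 were likewise higher with EGFP and higher still in the parental line, at mean levels with EGFP from 0.473 CPM for VIL1 to 22.1 CPM for SEMA3A. The part of the level in the parental line in their differences was not tested.

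**Figure D5:**
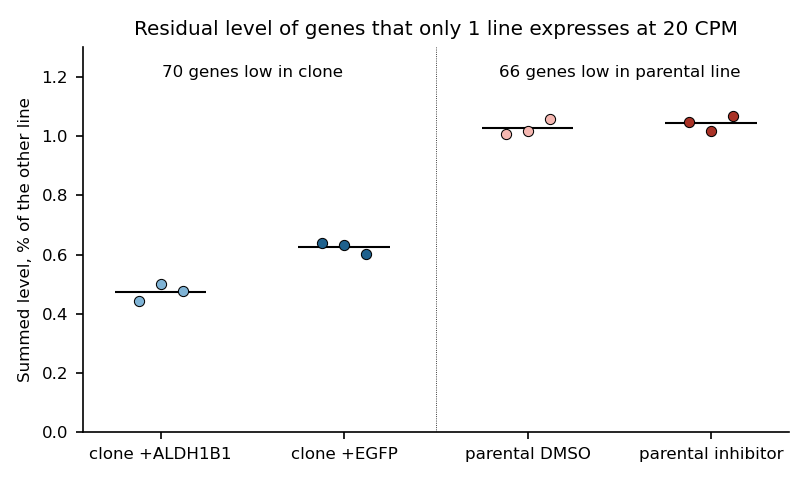
Summed CPM in each library (points, with the group mean as a line) as a percentage of the mean summed level in the other line, for 70 genes at 20 CPM or more in the parental line and under 1 CPM in the clone (left) and 66 genes of the reverse kind (right). The EGFP libraries lie at 0.603% to 0.639% and the ALDH1B1 libraries at 0.443% to 0.499%.

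Single genes of this kind rested on few reads. VIL1, the villin of microvilli, had 7, 2 and 6 reads with ALDH1B1 and 16, 18 and 16 with EGFP, against 350.7, 336.3 and 344.3 CPM in DMSO and 391.7, 400.8 and 402.5 CPM with inhibitor. It rose in both arms, by 1.71 ± 0.33 and 0.21 ± 0.05, with 46.6% of its exons overlapping another gene. The difference of 1.501 ± 0.33 became 1.08 without ALDH1B1 replicate 2 and was then not called (edgeR quasi-likelihood test, Benjamini-Hochberg adjusted p = 0.134). HNF4A, a transcription factor of gut epithelium, averaged 1.33 ± 0.22 and 2.09 ± 0.17 CPM (SD, n = 3) in the clone and 95.2 ± 2.54 and 100.5 ± 3.86 CPM in the parental line. Its difference of 0.58 ± 0.15 lost its call without ALDH1B1 replicates 1 or 2, EGFP replicate 1, DMSO replicate 3 or inhibitor replicate 3, with values from 0.44 to 0.63. JAKMIP2-AS1, LINC01139 and PCP4 had no read in any ALDH1B1 library and 14, 11 and 7 reads over the EGFP libraries. Against a floor of 3 reads over the group, the first 2 were at least 4.87-fold and at least 3.83-fold higher with EGFP and PCP4 at least 2.44-fold. LINC01139 lost its call for the difference without ALDH1B1 replicates 1 or 2 or EGFP replicate 3. PCP4 lost it without any ALDH1B1 replicate, EGFP replicates 1 or 3, DMSO replicate 3 or inhibitor replicate 3, while JAKMIP2-AS1 kept it in all 19 alternatives. JAKMIP2-AS1 is an antisense gene that overlaps JAKMIP2 over 25.99% of its exons, and the strand setting of the counting is not given, so reads from the pair cannot be told apart.

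Genes low in the parental line gave differences from few reads in that line. SLC26A4, an anion exchanger, had 12, 22 and 26 reads in DMSO and 7, 2 and 5 with inhibitor, and 5.43 ± 0.60 and 4.83 ± 0.56 CPM (SD, n = 3) in the clone with ALDH1B1 and EGFP. It fell with inhibitor by 2.10 ± 0.42 on the log2 scale, with a difference of 1.93 ± 0.46 that lost its call without DMSO replicate 3 (1.75) or the inhibitor library with no number (1.56). SYT5, a synaptotagmin, had 10, 7 and 23 reads in DMSO and 5, 6 and 5 with inhibitor, was called in neither arm and lost its call for the difference in 10 of the 19 alternatives. Its difference of 1.76 ± 0.49 fell to 1.18 without DMSO replicate 3, and the call held without 1 library for EGFP replicate 3 and DMSO replicates 1 and 2 alone. AFF3, a transcription elongation cofactor, rose in the clone from 14.6, 14.1 and 14.2 CPM to 26.5, 26.2 and 27.3 CPM, and in the parental line stayed between 0.606 and 1.11 CPM, where the groups overlapped. Its difference of 0.99 ± 0.25 was 0.68 without DMSO replicate 3 and 0.84 without inhibitor replicate 1, and was then not called.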

How the data were processed

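Polyadenylated RNA of SW480 cells was made into 12 libraries with an NEBNext Ultra II kit, per the labels' protocols. Tools named by the submitters' processing notes are STAR, fastp and DESeq2, with the genome build hg38. How reads were counted, with which annotation and strand setting, was not given in the sources used here. Raw counts, whole numbers for each gene in each library, were deposited for 29667 genes in the knockout table and 30478 in the inhibitor table, per the file headers. Gene spans equal GENCODE release 29 for 33325 of 33331 genes, which gave transcript lengths and overlaps of exons on either strand. A further 24 columns of values per sample stayed out of use.

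Column names gave the groups, and 1 inhibitor column without a replicate number was kept as a replicate with no number. All 12 libraries were fitted at once with edgeR 4.0.16 in R 4.3.3 (TMM scaling, filterByExpr with 4 groups, glmQLFit and glmQLFTest, Benjamini-Hochberg adjustment over all genes tested, threshold 0.05), with no covariate. Standard errors are the change over the square root of F, and CPM used TMM-scaled library sizes. List levels per library used log2 of CPM plus 0.5. On simulated counts of 18777 genes for the difference, 83% of 1.5-fold and 100% of 2-fold changes were recovered, and 10 of 193 calls were false. The changed genes lay above a mean of 5 CPM over the lines and above 1 CPM in each line. They were changed in the knockout arm only, and no library was simulated as standing apart. These rates therefore do not cover genes at lower levels or libraries that stand apart.

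The genes given and the 36 gene lists were chosen with earlier results of these data known. Named were ALDH1B1, the genes given (TXNIP, ANXA1, KRT19, FGF19 and CACNA1H), and, at 5 CPM or more in both lines and past 0.05 for the difference, the 6 opposite calls per direction with the smallest p, the 3 same-direction calls per direction with the largest difference and, with groups apart, the 4 calls of 1 arm per arm and direction with the largest difference. Added were the 3 genes per line at 5 CPM or more in it and under 1 CPM in the other, and the 2 members with the smallest p in the 8 lists with the highest share of called differences. A gene outside this rule is said to be so where it is named. Alternatives were no filter on low counts, size factors by relative log expression, DESeq2 1.42.0, a replicate block, each arm on its own 6 libraries, genes of either table, an offset for a length trend (mgcv 1.9.3), controls alone for the line level, each library left out, and, added after the data were seen, both libraries that stand apart left out. Promoter windows came from RefSeq.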

Additional observations from a re-analysis of the deposited data

Results flagged for a closer look

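In 13 of the genes named, the arms moved in opposite directions by call and the difference itself was called in edgeR's quasi-likelihood test on all 12 libraries. Higher in the knockout arm and lower with inhibitor were TXNIP, with a log2 difference of 0.88, ANXA1 with 0.94, CACNA1H with 1.49, MUCL1 with 0.99, MYO15B with 0.92 and PRSS23 with 1.01. Lower in the knockout arm and higher with inhibitor were FGF19, with a log2 difference of -0.61, CCDC86 with -0.62, ACTN1 with -0.47, TRAP1 with -0.44, FKBP4 with -0.47, PHB with -0.50 and MCM2 with -0.44. All 13 differences kept their call in each of the 19 alternatives run. The 13 met rules that pick the smallest p for this difference, and the alternatives refit these same libraries, so this is no separate evidence. The opposite calls of the 13 genes were less stable. TXNIP and ANXA1 kept both arm calls in each of 20 alternatives, TRAP1 in 19, FGF19 and CACNA1H in 18, PHB in 17, PRSS23 and ACTN1 in 16, CCDC86 in 14, MYO15B in 13, MUCL1 in 11, MCM2 in 10 and FKBP4 in 3. With each arm on its own 6 libraries the inhibitor rises of CCDC86, FKBP4 and MCM2 were not called (edgeR quasi-likelihood test, Benjamini-Hochberg adjusted p = 0.0588, 0.0687 and 0.079). Over all genes, the 55 opposite calls numbered 6 with the replicate block and 11 without inhibitor replicate 3. The inhibitor libraries of PRSS23 overlapped those of DMSO, and exons shared with another gene make CCDC86, TRAP1, PHB, FKBP4 and MCM2 less certain.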

How the results depend on the processing

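Over 988 pairs of a named gene and an alternative, the difference kept its direction in all and its call in 913, and the other 75 lost it. BLOC1S1 lost its call in 12 alternatives, SYT5 in 10, MT-ND3 and PCP4 in 9, KLF15 and MRPL12 in 7, HNF4A in 6 and LINC01139 in 4. Counts moved more. Where 1 library was left out, positive differences ranged from 170 to 444, negative ones from 222 to 596, knockout calls from 1370 to 2921, inhibitor calls from 311 to 1342, opposite calls from 5 to 30 (knockout higher) and 6 to 36 (knockout lower), and same-direction calls from 44 to 150 (higher) and 74 to 196 (lower). Same-numbered libraries of the clone had correlations of deviations of 0.0098, -0.025 and 0.10 and those of the parental line -0.06 and -0.04. The inhibitor library with no number had -0.22, 0.22 and -0.05 with DMSO replicates 1, 2 and 3. With 3 libraries per group, these values cannot tell whether cultures were paired, and the main fit used no pairing. With the replicate block, which leaves out the library with no number, there were 190 positive and 279 negative differences, 3 opposite calls in each direction, 20 genes higher in both arms and 273 inhibitor calls. DESeq2 gave 61 opposite calls with the knockout arm lower and 186 genes higher in both arms. Opposite calls with the knockout arm lower numbered 21 with no filter, 17 with both libraries that stand apart left out and 15 with each arm on its own 6 libraries, where 73 genes were higher in both arms. With no filter, 5501 genes were at least 2-fold higher in the parental line, against 3508 by fold alone. The same genes were called for the difference in 939 of 974 cases with DESeq2, 935 with the length trend removed and 422 with the replicate block. Fewer samples were fitted in the block and in each leave-one-out, and for the others the cause was not tested. Genes under about 10 reads per library, such as PCP4, are limited by depth, and intervals cover counting and spread between these cultures only.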
